A study of Mus musculus with 9 samples.

Results

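The 46 genes described here code for the machinery that copies DNA in S phase, from the licensing of origins to the supply of nucleotides and the packing of new DNA into chromatin. They were chosen by symbol. All 46 are among the 23420 gene symbols of the deposited table, and all 46 passed the filter on low values (at least 1 TPM in at least 3 libraries) that left 13839 genes to test. TPM is a read count divided by the length of the gene and scaled to the same total in every library, so levels of different genes can be compared. RNA was sequenced from neural stem cells of the hippocampus of wild-type C57BL/6J mice that were 2 days old. The cells were kept in medium that lacked bFGF and EGF, to promote differentiation, and received 3 µM NAT, 3 µM P7C3-A20 or the DMSO vehicle, with 3 libraries in each group. NAT is named in the labels only as a new small molecule, and P7C3-A20 is an aminopropyl carbazole. All 3 groups share the age, the strain and the withdrawal of growth factors. Neither the time of treatment nor whether the 3 libraries of a group came from separate cultures or animals is given in the sources used here.

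Before S phase, origins of replication are licensed: the origin recognition complex, with Cdc6 and Cdt1, loads the ring of MCM proteins onto DNA. The ring becomes an active helicase when Cdc45 and the GINS complex join it, after which primase, the replicative polymerases, the sliding clamp PCNA and the ligase copy both strands. Many of these genes are transcribed by E2F factors, which are released when cyclin E and its kinase inactivate the retinoblastoma protein. In neural stem cells these genes are known as markers of cycling progenitors, and their levels drop when cells leave the cycle to differentiate.

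The members were present in all 9 libraries, with 49 to 3717 recovered reads per gene and library. In DMSO the median member had 31.1 TPM, against 26.1 TPM for all genes tested. Of the 46 members, 4 had at least 100 TPM in DMSO (Pcna, Rrm1, Rrm2 and Mcm7), 36 had 10 to 100 TPM and 6 had less than 10 TPM. Depth was 12994081 to 13803959 recovered reads in the NAT libraries, 15885313 to 17217584 in the P7C3-A20 libraries and 12028821 to 14109316 in the DMSO libraries.

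The labels call the cells neural stem cells, and all 7 neural stem cell markers used here (Nes, Sox2, Vim, Fabp7, Pax6, Hes5 and Prom1) were expressed. Their summed level was 16022 to 16416 TPM in NAT, 15501 to 16036 TPM in P7C3-A20 and 16774 to 17222 TPM in DMSO, so the DMSO libraries lay above both compound groups. All 8 astrocyte markers were expressed too, at 7834 to 8049 TPM in sum with NAT, 6929 to 7825 TPM in P7C3-A20 and 7315 to 7662 TPM in DMSO, so that the NAT libraries lay above all others. The sum of the 8 neuronal markers was 703 to 749 TPM in NAT, 679 to 736 TPM in P7C3-A20 and 719 to 746 TPM in DMSO. That of the 8 oligodendrocyte lineage markers was 3150 to 3323 TPM in NAT, 3298 to 3839 TPM in P7C3-A20 and 3313 to 3454 TPM in DMSO. Both of these sums overlapped between the groups. The part that cell type makeup has in the values below was not tested, and in bulk RNA fewer cycling cells cannot be told apart from less RNA of these genes per cell. Microglia, endothelial and red blood cell markers were near 0: no list of them exceeded 3.42 TPM in sum, and Cx3cr1, Trem2, Cldn5, Cdh5, Hba-a1 and Hbb-b1 were at 0 in all 9 libraries.

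The choice by symbol did not use promoter letters. Many replication genes are, as given above, transcribed by E2F factors, so a larger share of E2F motifs is not independent of the list. RefSeq promoter windows of 300 bases (250 before and 50 after the transcription start, assembly GRCm38.p6) were found for 36 of the 46 members, 41 windows in all. They were searched on both strands for 4 spellings of the E2F motif, TTTCCCGC, TTTCGCGC, TTTGCCGC and TTTGGCGC, and for CCAAT, the box bound by NF-Y. At least 1 E2F spelling was found in 13 of the 36 members (36.1%), against 466 of the 10050 tested genes with a window (4.64%) and 704 of all 27025 genes with a window (2.6%). The CCAAT box was in 24 of the members' 41 windows (58.5%), against 37.7% of the windows of tested genes and 37.4% of all windows. The E2F share was similar in 64 further replication genes described below, with a spelling in 18 of the 54 with a window (33.3%). Their CCAAT share, 33 of 69 windows (47.8%), lay between that of the members and that of tested genes. The windows below belong to the 4 members with the lowest p for NAT against DMSO (Lig1, Ccne1, Rrm2 and Tk1), followed by those of Mcm3 and Mcm6, chosen after their matches were seen because they hold several. Capitals mark E2F spellings and CCAAT boxes on either strand, and the gene's own strand is printed. Bases after the start were also found near the beginning of a GENCODE transcript for each printed window except that of Mcm6. The start from which the Mcm6 positions are counted was thus not matched in this way.
Lig1, chr7:13278576-13278875, plus strand: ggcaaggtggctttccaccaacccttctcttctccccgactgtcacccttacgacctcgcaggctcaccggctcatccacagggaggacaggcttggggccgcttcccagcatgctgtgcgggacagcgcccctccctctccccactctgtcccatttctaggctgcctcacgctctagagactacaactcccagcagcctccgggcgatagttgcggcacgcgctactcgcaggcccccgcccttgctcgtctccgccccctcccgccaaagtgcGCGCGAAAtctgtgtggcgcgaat
Ccne1, chr7:38107441-38107740, minus strand: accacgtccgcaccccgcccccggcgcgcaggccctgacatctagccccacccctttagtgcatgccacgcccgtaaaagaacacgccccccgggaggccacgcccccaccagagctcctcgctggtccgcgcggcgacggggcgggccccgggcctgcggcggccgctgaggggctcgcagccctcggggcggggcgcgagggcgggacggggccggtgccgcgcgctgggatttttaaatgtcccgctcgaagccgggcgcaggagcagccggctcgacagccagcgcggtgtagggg
Rrm2, chr12:24708004-24708303, plus strand: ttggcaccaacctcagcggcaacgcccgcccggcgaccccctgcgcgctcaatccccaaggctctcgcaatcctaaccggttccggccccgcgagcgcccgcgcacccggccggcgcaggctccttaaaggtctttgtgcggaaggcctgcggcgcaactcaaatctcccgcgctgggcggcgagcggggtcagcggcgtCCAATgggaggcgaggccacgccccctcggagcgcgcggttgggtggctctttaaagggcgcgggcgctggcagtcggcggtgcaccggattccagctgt
Tk1, chr11:117825965-117826264, minus strand: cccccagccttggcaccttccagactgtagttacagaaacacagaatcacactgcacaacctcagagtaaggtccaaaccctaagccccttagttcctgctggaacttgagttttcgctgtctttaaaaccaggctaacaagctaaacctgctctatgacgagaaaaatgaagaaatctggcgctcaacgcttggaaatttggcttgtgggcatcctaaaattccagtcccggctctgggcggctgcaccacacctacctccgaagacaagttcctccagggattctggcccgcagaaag
Mcm3, chr1:20820263-20820562, minus strand: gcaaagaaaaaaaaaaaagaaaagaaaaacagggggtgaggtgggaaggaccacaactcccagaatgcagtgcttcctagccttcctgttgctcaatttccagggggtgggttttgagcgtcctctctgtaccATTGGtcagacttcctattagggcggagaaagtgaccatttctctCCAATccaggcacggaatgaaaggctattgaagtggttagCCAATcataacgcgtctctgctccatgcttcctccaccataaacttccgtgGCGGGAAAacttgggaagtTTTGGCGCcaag
Mcm6, chr1:128359656-128359955, minus strand: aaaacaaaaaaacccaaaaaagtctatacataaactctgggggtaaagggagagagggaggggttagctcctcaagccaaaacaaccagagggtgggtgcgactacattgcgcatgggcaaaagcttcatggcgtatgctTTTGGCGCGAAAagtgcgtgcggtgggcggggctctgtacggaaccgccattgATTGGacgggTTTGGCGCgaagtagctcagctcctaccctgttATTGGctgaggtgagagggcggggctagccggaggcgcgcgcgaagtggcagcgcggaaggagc
The Lig1 window, 1 of 3 for that gene, holds GCGCGAAA from 27 bases after the start, and the other 2 Lig1 windows hold no match. In the Rrm2 window a CCAAT box begins 50 bases before the start, and in those of Ccne1 and Tk1 neither set of letters is present. Mcm3 has CCAAT boxes at 117, 72 and 32 bases before the start, and the E2F spellings GCGGGAAA and TTTGGCGC at 20 and 39 bases after it. In Mcm6, TTTGGCGC and GCGCGAAA overlap from 110 and 106 bases before the start, TTTGGCGC recurs at 47 bases, and ATTGG, the CCAAT box on the other strand, lies at 57 and 14 bases. The fold changes of both kinds of member were close: for NAT against DMSO the median log2 fold change was 0.16 in the 13 members with a match and 0.17 in the 23 with a window and none, and for NAT against P7C3-A20 it was 0.14 and 0.15. A match is a description of the letters and not of binding.

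With NAT, the replication genes as a group stood above both other groups. The members' TPM summed to 2229, 2206 and 2277 in the NAT libraries, 2026, 2051 and 1990 in the P7C3-A20 libraries and 2145, 2022 and 1903 in the DMSO libraries. Every NAT library was above every library of the other groups. The means were 2237 ± 36.2 TPM in NAT, 2023 ± 30.7 TPM in P7C3-A20 and 2024 ± 121 TPM in DMSO (SD, n = 3 each), and the P7C3-A20 libraries lay inside the DMSO range. NAT had the highest of the 3 group means for 44 of the 46 members, and P7C3-A20 for the other two, Rpa3 and Pold1. The highest of all 9 libraries was a NAT library for 40 members (87.0%), against 39.7% of all genes tested, and the lowest was a NAT library for 0 members, against 24.6%. For 13 members all NAT libraries exceeded the 6 others, which held for 4.94% of all genes tested.

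**Figure D1:**
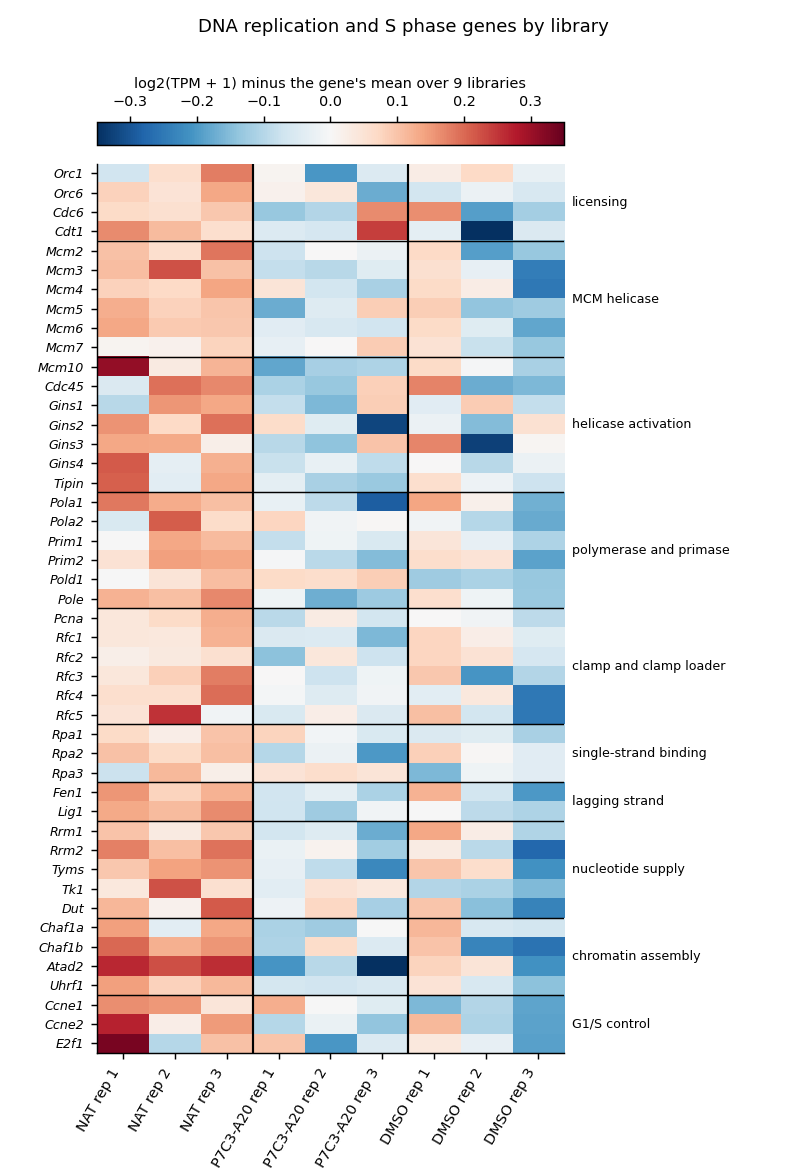
Level of each of the 46 members (down the page, grouped by role) in each of the 9 libraries (across), as log2(TPM + 1) minus the gene's mean over the 9 libraries. Red is above and blue below that mean. The 3 NAT columns are mostly red and the P7C3-A20 columns mostly a weak blue. The DMSO columns run between the mostly red replicate 1 and the mostly blue replicate 3.

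The DMSO libraries differed among themselves in these genes more than in others. Among the 3 DMSO libraries, replicate 1 was the highest for 37 of the 46 members and replicate 3 the lowest for 35, against 31.4% and 28.9% of all genes tested. The median coefficient of variation of a member was 3.96% in NAT, 4.80% in P7C3-A20 and 7.93% in DMSO. Over all genes tested it was 4.99%, 5.77% and 5.29%. Over all genes with 20 to 250 TPM, a range that some members lay below, it was 3.63%, 4.43% and 3.76%. Expressed as the median member's log2 difference from its mean over 9 libraries, the NAT libraries lay at 0.10, 0.08 and 0.12, the P7C3-A20 libraries at -0.05, -0.04 and -0.05 and the DMSO libraries at 0.06, -0.05 and -0.13. DMSO replicate 1 was thus nearer to the NAT libraries, and DMSO replicate 3 was the lowest of the 9. The members' counts and medians against DMSO are therefore also given without these libraries. For single genes, leaving out 1 library moved the log2 fold change by over 1.5 times, or turned its sign, for 29 of the 46 members in NAT against DMSO, 43 in P7C3-A20 against DMSO, where most values are near 0, and 21 in NAT against P7C3-A20.

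**Figure D2:**
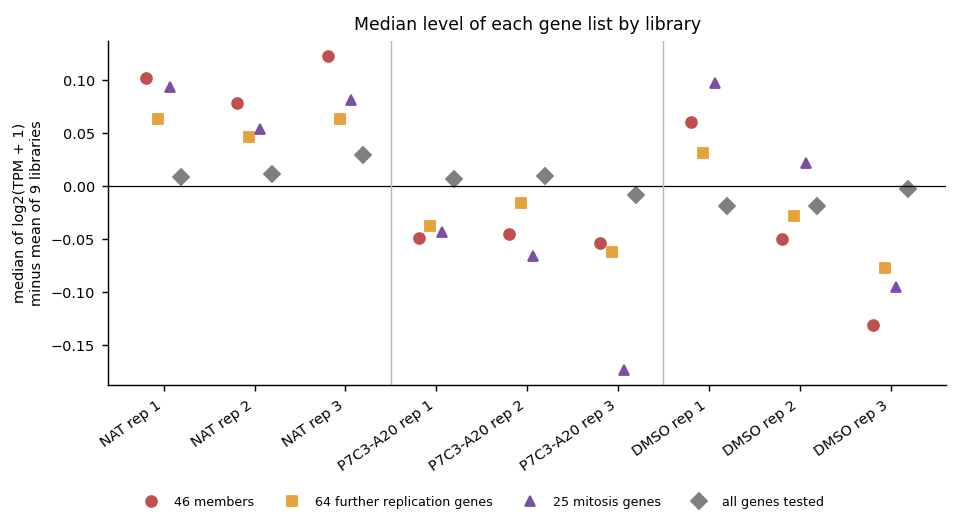
Median over each gene list of log2(TPM + 1) minus the gene's mean over 9 libraries (vertical axis), for each library (horizontal axis): the 46 members, 64 further replication genes, 25 mitosis genes and all genes tested. The members' median was 0.08 to 0.12 in NAT, about -0.05 in all P7C3-A20 libraries, and spread from 0.06 to -0.13 in DMSO.

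For NAT against DMSO, all 46 members had a positive log2 fold change, with a median of 0.16 (11.7% on the linear scale), against 0.03 over all genes tested, of which 63.5% were positive. The smallest of these values did not hold their sign under every setting. Rfc2 was at -0.01 with the GC trend described below removed, at -0.02 after quantile normalization and at -0.03 without DMSO replicate 3, Rrm1 was at -0.0050 without DMSO replicate 3, and Orc1 was at -0.03 without NAT replicate 3. No member passed an adjusted p of 0.05 in limma, where 0.0289% of all genes tested did. The lowest adjusted p was 0.210, for Lig1. At an unadjusted p below 0.05, 22 members were higher and 0 lower, against 8.67% and 3.00% of all genes tested, and for 18 members every NAT library was above every DMSO library and for 0 below, against 14.1% and 4.89%. These counts moved with single libraries. When DMSO replicate 1 was left out 31 members were higher, against 6.63% of all genes in that fit. When DMSO replicate 3 was left out 13 were, against 9.535%. Leaving out NAT replicate 3 gave 14, against 5.515%, and leaving out DMSO replicate 2 gave 15, against 6.45%. With voom, the limma variant for counts, applied to reads recovered from the TPM, 1 member passed, Rrm2 (log2 fold change 0.27 ± 0.06, adjusted p = 0.0308), against 0.260% of all genes tested (36 genes). With each library's trend with GC content also removed, Rrm2 again passed, against 0.380% of all genes.

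For P7C3-A20 against DMSO, 21 members had a positive and 25 a negative log2 fold change, with a median of -0.0016 against 0.01 over all genes tested. No member passed in limma in either direction, against 0.0217% of all genes tested (0.00723% higher and 0.0145% lower). At an unadjusted p below 0.05, 4 members were higher (Pold1, Ccne1, Tk1 and Rpa3) and 3 lower (Atad2, Rfc1 and Rpa2), against 10.7% and 5.12% of all genes tested. The members' share in either direction, 15.2%, was near the 15.9% of all genes. Without DMSO replicate 1, 8 members were higher and 0 lower, against 6.79% and 3.31% of all genes, with a median of 0.06. Without DMSO replicate 3, 1 was higher and 8 lower, against 12.5% and 5.29%, with a median of -0.05. The direction of the median thus rested on which DMSO libraries entered. With voom on recovered reads 1 member passed, Pold1 (log2 fold change 0.22 ± 0.06, adjusted p = 0.0394). Voom called 3.38% of all genes in this comparison (468 genes), so that 1 of 46 is no larger a share. With the GC trend also removed it passed 0 members, against 0.248% of all genes.

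For NAT against P7C3-A20, both at 3 µM, 44 of the 46 members had a positive log2 fold change, with a median of 0.15 (10.9%) against 0.01 over all genes tested, of which 54.0% were positive. No member passed in limma, and neither did any of the 13839 genes (0.00%). At an unadjusted p below 0.05, 24 members were higher and 0 lower, against 9.92% and 5.89% of all genes tested, and 25 members had no overlap between the groups with NAT higher and 0 with NAT lower, against 13.3% and 8.35%. The DMSO libraries enter neither the fold changes nor the overlaps, but through the shared estimate of spread they enter the p-values. With the 6 NAT and P7C3-A20 libraries fitted alone 28 members were higher and 0 lower, against 8.84% and 5.88% of all genes. Without NAT replicate 3, 15 members were higher, against 6.52% of all genes. Voom on recovered reads passed 4 members, all higher with NAT: Atad2 (adjusted p = 0.00189), Pole (0.0446), Pola1 (0.0450) and Lig1 (0.0454). Of all genes tested voom called 1.84% (254 genes), and 0.968% were higher with NAT. With the GC trend also removed 3 members passed (Atad2, Lig1 and Pole), against 0.453% of all genes.

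**Figure D3:**
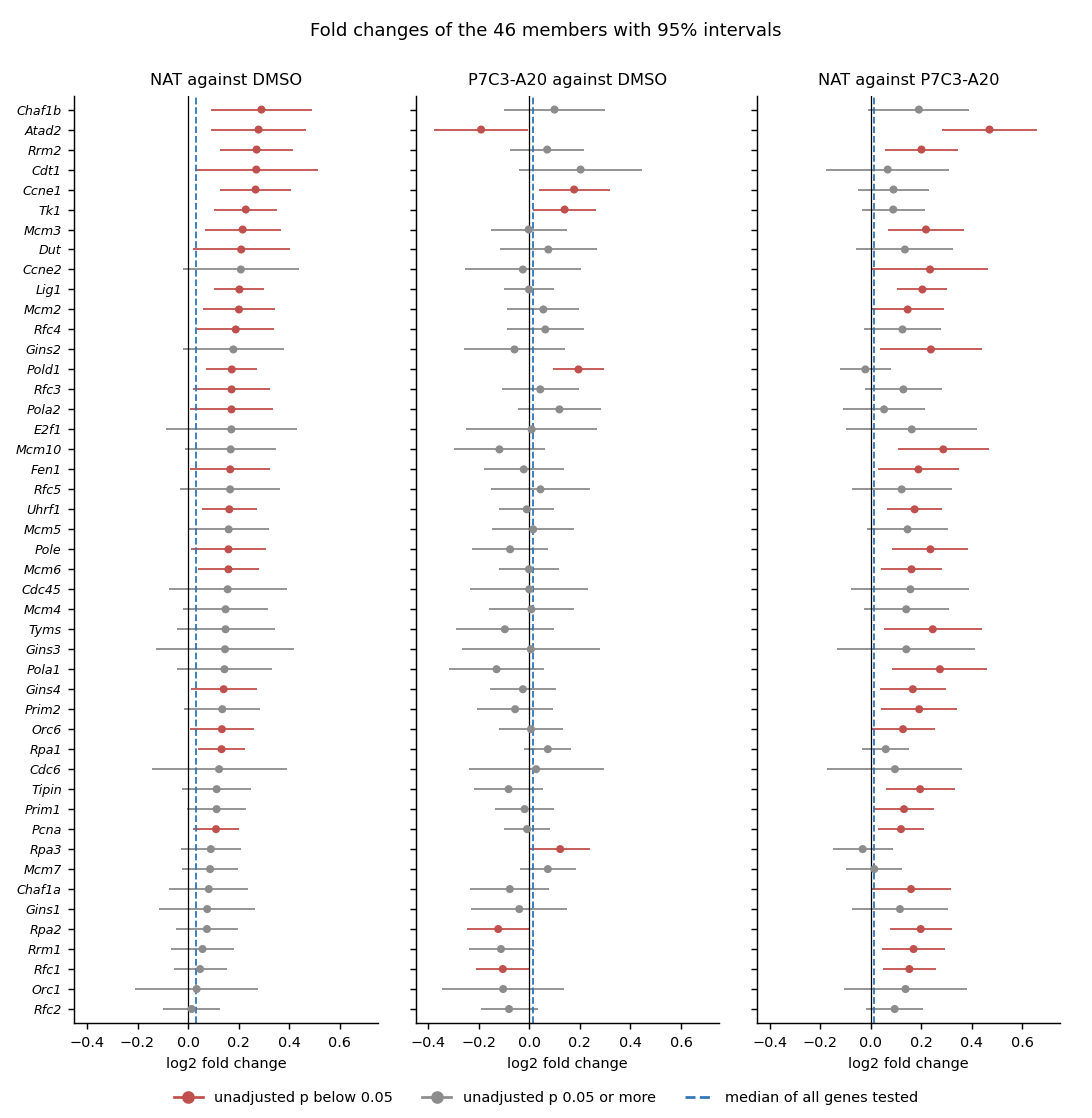
Log2 fold change (horizontal axis) of each of the 46 members (down the page, in the order of NAT against DMSO) with its 95% interval from limma, in the 3 comparisons. Red marks an unadjusted p below 0.05, and the dashed line is the median of all genes tested; the points lie right of 0 for all 46 members in the left panel, 21 in the middle one and 44 in the right one.

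The 4 licensing genes all had positive log2 fold changes for NAT against DMSO, of 0.03 to 0.27. Cdt1, which brings the MCM ring to origins and is destroyed once S phase begins, had 12.2, 11.7 and 11.3 TPM in NAT, 10.4, 10.3 and 12.9 TPM in P7C3-A20 and 10.5, 8.0 and 10.4 TPM in DMSO. The NAT libraries were above all DMSO libraries but not above the third P7C3-A20 library. Its log2 fold change for NAT against DMSO was 0.27 ± 0.11 (SE, adjusted p = 0.393 in limma), and 0.16 without DMSO replicate 2. Orc6, a subunit of the origin recognition complex, had 46.1, 45.1 and 47.9 TPM in NAT, 44.0, 44.8 and 38.5 TPM in P7C3-A20 and 41.6, 43.0 and 41.9 TPM in DMSO. NAT was above every library of both other groups, by a log2 fold change of 0.13 ± 0.06 against DMSO (adjusted p = 0.406) and of 0.13 ± 0.06 against P7C3-A20 (adjusted p = 0.310). The second of these was 0.07 with the GC trend removed and 0.06 without P7C3-A20 replicate 3. Orc1, the subunit of that complex whose protein level cycles, averaged 3.92 ± 0.42 TPM in NAT, 3.47 ± 0.33 TPM in P7C3-A20 and 3.80 ± 0.16 TPM in DMSO, the lowest level among the licensing genes. Cdc6, the loader, averaged 4.92 ± 0.08 TPM in NAT, 4.57 ± 0.65 TPM in P7C3-A20 and 4.47 ± 0.73 TPM in DMSO (SD, n = 3 each). Both overlapped between all groups.

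The 6 MCM genes kept the same order of group means with every treatment: Mcm7, Mcm6, Mcm2, Mcm3, Mcm4 and Mcm5. Mcm7 exceeded Mcm5 by 2.21 ± 0.08 times with NAT, 2.43 ± 0.13 times with P7C3-A20 and 2.33 ± 0.08 times with DMSO (SD over libraries, n = 3 each). All 6 had a positive log2 fold change for NAT against DMSO, 0.09 to 0.22, and all 6 for NAT against P7C3-A20, 0.01 to 0.22. Mcm3 had 55.2, 59.9 and 55.1 TPM in NAT, 48.3, 47.8 and 49.7 TPM in P7C3-A20 and 53.3, 50.1 and 43.2 TPM in DMSO. All NAT libraries were above the 6 others, and the P7C3-A20 libraries lay inside the DMSO range. Its log2 fold change was 0.22 ± 0.07 for NAT against DMSO (adjusted p = 0.296, and 0.13 as a log2 fold change without DMSO replicate 3) and 0.22 ± 0.07 for NAT against P7C3-A20 (adjusted p = 0.208). Mcm6, with 3 E2F spellings in its window, had 78.0, 75.5 and 75.7 TPM in NAT, 68.9, 68.1 and 67.6 TPM in P7C3-A20 and 74.3, 68.7 and 62.3 TPM in DMSO, again with NAT above every other library. Mcm7, the most abundant, had 104, 105 and 110 TPM in NAT, 102, 104 and 110 TPM in P7C3-A20 and 107, 98.2 and 94.6 TPM in DMSO. Its groups overlapped in every comparison, and the 95% interval for NAT against P7C3-A20 was -0.10 to 0.12 on the log2 scale.

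Genes that turn the MCM ring into a working helicase, or that travel with it, were all higher with NAT than with DMSO in their means, by log2 fold changes of 0.08 to 0.18. Gins4 was the most and Gins3 the least abundant of the 4 GINS subunits, by 6.58 ± 0.68 times with NAT, 6.55 ± 0.77 times with P7C3-A20 and 6.74 ± 1.14 times with DMSO, although the protein complex holds its subunits in equal numbers. Gins4 had 55.9, 47.0 and 52.5 TPM in NAT, 45.5, 47.2 and 45.1 TPM in P7C3-A20 and 48.1, 44.9 and 47.4 TPM in DMSO. The second NAT library lay inside the ranges of both other groups. Mcm10, which helps to start unwinding, had 17.0, 13.9 and 14.8 TPM in NAT, 11.8, 12.4 and 12.5 TPM in P7C3-A20 and 14.3, 13.5 and 12.5 TPM in DMSO. NAT was above P7C3-A20 without overlap (log2 fold change 0.29 ± 0.08, adjusted p = 0.190) and overlapped with DMSO. Tipin, which with Timeless steadies the moving fork, was the most abundant gene of this role, at 68.1, 57.3 and 64.7 TPM in NAT, 57.4, 54.3 and 53.7 TPM in P7C3-A20 and 61.4, 58.1 and 55.9 TPM in DMSO. Its second NAT library lay below some libraries of both other groups.

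Of the 6 polymerase and primase genes, all were higher in their means with NAT than with DMSO, and Pold1 was also higher with P7C3-A20 in every library. Pold1, the catalytic subunit of polymerase delta on the lagging strand, had 28.2, 29.1 and 30.5 TPM in NAT, 29.6, 29.5 and 30.0 TPM in P7C3-A20 and 25.8, 26.1 and 25.6 TPM in DMSO. Both compounds were above every DMSO library, and they overlapped with each other. The log2 fold change was 0.17 ± 0.05 for NAT against DMSO (adjusted p = 0.249) and 0.19 ± 0.05 for P7C3-A20 against DMSO (adjusted p = 0.153), while for NAT against P7C3-A20 it was -0.02 with a 95% interval of -0.12 to 0.08. With the GC trend removed the value for P7C3-A20 against DMSO was 0.09, and that for NAT against P7C3-A20 was 0.06. Pole, the catalytic subunit of polymerase epsilon on the leading strand, had 17.4, 17.2 and 18.0 TPM in NAT, 15.7, 14.0 and 14.5 TPM in P7C3-A20 and 16.6, 15.7 and 14.5 TPM in DMSO. Here NAT was above all 6 others, and P7C3-A20 overlapped with DMSO. Pola1, the catalytic subunit of the polymerase that extends primers, had 28.3, 27.2 and 26.7 TPM in NAT, 24.4, 23.2 and 20.1 TPM in P7C3-A20 and 27.4, 25.1 and 22.0 TPM in DMSO. NAT exceeded P7C3-A20 without overlap, by a log2 fold change of 0.27 ± 0.09 (adjusted p = 0.208). Prim2, the large primase subunit and the most abundant gene of this role, had 41.8, 44.7 and 44.4 TPM in NAT, 40.3, 37.7 and 36.3 TPM in P7C3-A20 and 42.2, 41.7 and 35.3 TPM in DMSO. NAT was above P7C3-A20 in all libraries and overlapped with DMSO.

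The ratio of 2 genes within a library describes such differences within pairs and does not depend on the scaling between libraries. Pold1 over Pole was 1.62, 1.70 and 1.69 with NAT, 1.88, 2.10 and 2.08 with P7C3-A20 and 1.55, 1.66 and 1.77 with DMSO. The P7C3-A20 libraries lay above all 6 others. The GC content is 61.0% in the Pold1 transcript and 50.6% in that of Pole, and the P7C3-A20 libraries had the most positive slopes of expression with GC content. The part of this in the ratio was not tested. Rrm2 over Rrm1, the small over the large subunit of ribonucleotide reductase, was 1.06, 1.06 and 1.08 with NAT, 1.04, 1.05 and 1.04 with P7C3-A20 and 0.934, 0.925 and 0.894 with DMSO. Rrm2 exceeded Rrm1 in all 6 compound libraries and was below it in all 3 DMSO libraries. Both pairs were chosen after their values were seen, from 6 ratios that were computed, and were not tested. Of the other 4, Rpa1 over Rpa2 was 3.15 to 3.55 with P7C3-A20, above the 3.04 to 3.11 of NAT and the 2.85 to 3.03 of DMSO. Chaf1a over Chaf1b was 1.06 to 1.18 with NAT and 1.04 to 1.23 with P7C3-A20, against 1.21 to 1.38 in DMSO, and Ccne1 over Ccne2 and Mcm7 over Mcm5 are given with those genes.

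**Figure D4:**
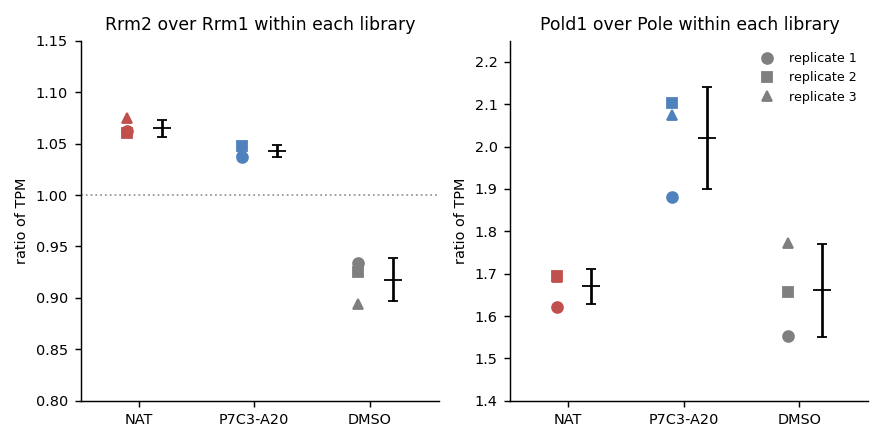
Ratio of TPM within each library (vertical axes, which do not start at 0) for Rrm2 over Rrm1 and Pold1 over Pole, by group, with the mean and SD of 3 libraries beside the points. Rrm2 over Rrm1 is 1.04 to 1.08 in the compound libraries and 0.894 to 0.934 in DMSO; Pold1 over Pole is highest in the P7C3-A20 libraries, at 1.88 to 2.10.

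Pcna, the clamp that holds polymerases on DNA, was the most abundant member of all. It had 227, 231 and 241 TPM in NAT, 207, 226 and 211 TPM in P7C3-A20 and 221, 219 and 207 TPM in DMSO. Each NAT library was above every other library, by margins that were small against the level: the log2 fold change was 0.11 ± 0.04 against DMSO (adjusted p = 0.357) and 0.12 ± 0.04 against P7C3-A20 (adjusted p = 0.231). The value against P7C3-A20 was 0.06 with the GC trend removed. The 5 subunits of the clamp loader RFC ranked Rfc2, Rfc1, Rfc3, Rfc4 and Rfc5 in every group. Rfc4 had 42.2, 42.2 and 46.5 TPM in NAT, 40.3, 39.2 and 40.1 TPM in P7C3-A20 and 39.4, 41.5 and 33.9 TPM in DMSO. NAT was above both other groups, with a log2 fold change of 0.19 ± 0.07 against DMSO (adjusted p = 0.348), which was 0.11 without DMSO replicate 3. Rfc1, the large subunit, had 61.6, 61.5 and 65.3 TPM in NAT, 57.8, 57.9 and 53.5 TPM in P7C3-A20 and 63.1, 60.9 and 58.1 TPM in DMSO. It was the only member with all P7C3-A20 libraries below all DMSO libraries (log2 fold change -0.11 ± 0.05, adjusted p = 0.312), where 7.49% of all genes tested were. Without P7C3-A20 replicate 3 that fold change was -0.07. Rfc2 had the smallest fold change of the 46 for NAT against DMSO, 0.01, and changed sign as given above.

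The 3 subunits of RPA, which coats single-stranded DNA, did not share 1 pattern. Rpa1 had 106, 102 and 108 TPM in NAT, 106, 99.9 and 96.9 TPM in P7C3-A20 and 97.2, 97.7 and 93.0 TPM in DMSO. NAT was above all DMSO libraries (log2 fold change 0.13 ± 0.04, adjusted p = 0.296) and overlapped with P7C3-A20. Rpa2 had 34.6, 33.7 and 34.7 TPM in NAT, 29.9, 31.7 and 27.8 TPM in P7C3-A20 and 34.2, 32.3 and 31.3 TPM in DMSO. NAT was above P7C3-A20 without overlap (log2 fold change 0.20 ± 0.06, adjusted p = 0.190), and P7C3-A20 overlapped with DMSO in a single library of each. Rpa3 had 54.7, 62.6 and 58.5 TPM in NAT, 59.6, 60.3 and 59.5 TPM in P7C3-A20 and 51.6, 57.1 and 56.1 TPM in DMSO. Here P7C3-A20 was above all DMSO libraries (log2 fold change 0.12 ± 0.05, adjusted p = 0.306), and NAT overlapped with both. That value was 0.08 without DMSO replicate 1 and 0.20 in voom with the GC trend removed.

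Lig1, the ligase that joins Okazaki fragments, had the lowest p of the 46 members for NAT against DMSO. It had 60.2, 59.2 and 61.5 TPM in NAT, 52.1, 50.2 and 54.3 TPM in P7C3-A20 and 54.8, 51.3 and 50.7 TPM in DMSO. The lowest NAT library was above the highest of the 6 others, and P7C3-A20 and DMSO overlapped. The log2 fold change was 0.20 ± 0.04 against DMSO (95% interval 0.10 to 0.30, adjusted p = 0.210) and 0.20 ± 0.04 against P7C3-A20 (0.11 to 0.30, adjusted p = 0.168). Fen1, the nuclease that trims those fragments, had 32.4, 30.6 and 31.6 TPM in NAT, 27.6, 28.3 and 26.8 TPM in P7C3-A20 and 31.6, 27.7 and 25.1 TPM in DMSO. DMSO replicate 1 lay among the NAT libraries, and the log2 fold change was 0.17 ± 0.07 against DMSO (adjusted p = 0.414). Without DMSO replicate 1 it came to 0.25, and with DMSO replicate 3 left out instead to 0.09.

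Of the 5 genes that supply nucleotides, Rrm2 and Tk1 differed most between NAT and DMSO. Rrm2, the subunit of ribonucleotide reductase that is made in S phase, had 176, 167 and 177 TPM in NAT, 153, 157 and 143 TPM in P7C3-A20 and 158, 146 and 128 TPM in DMSO. NAT was above every other library, with a log2 fold change of 0.27 ± 0.07 against DMSO (adjusted p = 0.225) and 0.20 ± 0.07 against P7C3-A20 (adjusted p = 0.218). Rrm1, the large subunit, had 166, 158 and 165 TPM in NAT, 148, 150 and 137 TPM in P7C3-A20 and 170, 157 and 144 TPM in DMSO. NAT lay inside the DMSO range and above all P7C3-A20 libraries. Tk1, the thymidine salvage kinase of S phase, had 33.2, 37.9 and 33.6 TPM in NAT, 31.5, 33.5 and 33.2 TPM in P7C3-A20 and 30.1, 29.9 and 28.9 TPM in DMSO. Both compounds were above all DMSO libraries, by log2 fold changes of 0.23 ± 0.06 for NAT (adjusted p = 0.225) and 0.14 ± 0.06 for P7C3-A20 (adjusted p = 0.271). Dut, which keeps uracil out of DNA, had 30.4, 28.2 and 32.6 TPM in NAT, 27.6, 29.4 and 25.7 TPM in P7C3-A20 and 29.9, 25.1 and 23.6 TPM in DMSO, with overlap in every comparison.

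Among the chromatin genes, Atad2 had the largest log2 fold change of the 46 members for NAT against P7C3-A20. Atad2 codes for a bromodomain ATPase on replicating chromatin, and had 27.4, 26.7 and 27.3 TPM in NAT, 19.5, 21.1 and 17.5 TPM in P7C3-A20 and 24.0, 23.4 and 19.4 TPM in DMSO. NAT was above all 6 others, and P7C3-A20 overlapped with DMSO through DMSO replicate 3. The log2 fold change was 0.47 ± 0.09 for NAT against P7C3-A20 (95% interval 0.28 to 0.66, adjusted p = 0.168), 0.28 ± 0.09 for NAT against DMSO (adjusted p = 0.288) and -0.19 ± 0.09 for P7C3-A20 against DMSO (adjusted p = 0.307). The last of these was -0.12 without P7C3-A20 replicate 3. Uhrf1, which brings the maintenance DNA methyltransferase to newly copied DNA, had 55.5, 53.2 and 54.4 TPM in NAT, 48.1, 47.9 and 48.3 TPM in P7C3-A20 and 51.9, 48.3 and 45.3 TPM in DMSO. NAT was above all 6 others, by a log2 fold change of 0.16 ± 0.05 against DMSO (adjusted p = 0.284) and 0.17 ± 0.05 against P7C3-A20 (adjusted p = 0.190). Chaf1b, a subunit of the histone chaperone CAF-1, had 22.0, 20.8 and 21.2 TPM in NAT, 17.5, 19.9 and 18.3 TPM in P7C3-A20 and 20.4, 16.0 and 15.7 TPM in DMSO. It had the largest log2 fold change of the members for NAT against DMSO, 0.29 ± 0.09 (adjusted p = 0.295), with NAT above every other library.

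Of the genes at the G1/S boundary, Ccne1 was higher with both compounds in all libraries. Ccne1, the cyclin that drives entry into S phase, had 20.6, 20.4 and 18.9 TPM in NAT, 20.1, 18.3 and 17.7 TPM in P7C3-A20 and 16.3, 17.0 and 16.0 TPM in DMSO. Both compounds were above all DMSO libraries and overlapped with each other. The log2 fold change was 0.27 ± 0.06 for NAT (adjusted p = 0.224) and 0.18 ± 0.06 for P7C3-A20 (adjusted p = 0.229) against DMSO. Ccne2, the other cyclin E gene, was less abundant than Ccne1, by 2.84 ± 0.31 times with NAT, 3.20 ± 0.25 times with P7C3-A20 and 2.76 ± 0.34 times with DMSO. For E2f1, which switches on many of the genes above, the 95% interval for NAT against DMSO was wide, at -0.09 to 0.43 around 0.17, and NAT replicate 1 was its highest library. The value was 0.06 without that library, 0.28 without NAT replicate 2 and 0.11 without DMSO replicate 3.

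**Figure D5:**
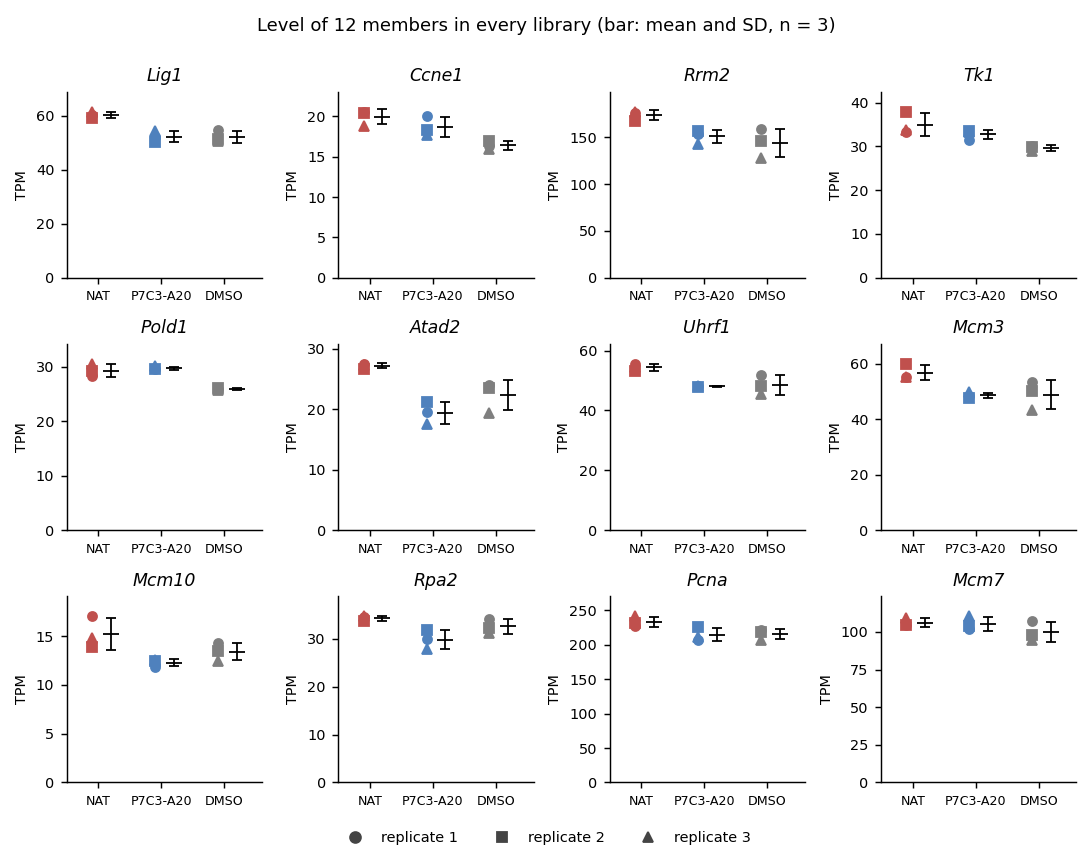
TPM (vertical axes, from 0) of 12 members in each library by group (horizontal axes), with the mean and SD of 3 libraries beside the points. In Lig1, Rrm2, Atad2, Uhrf1, Mcm3 and Pcna every NAT library is above the 6 others; in Ccne1, Tk1 and Pold1 both compounds are above DMSO; Mcm7 overlaps throughout.

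A further 64 replication genes, among them other origin and fork factors, nucleotide enzymes, chromatin factors and regulators, were less shifted in their median. For NAT against DMSO their median log2 fold change was 0.07, with 12 of 64 higher and 0 lower at an unadjusted p below 0.05, against 8.67% and 3.00% of all genes tested, and 0 passing in limma. For P7C3-A20 against DMSO it was -0.02, with 0 higher and 1 lower, against 10.7% and 5.12%. Without DMSO replicate 1 that median was 0.01, and without DMSO replicate 3 there were 7 lower, against 5.29% of all genes. For NAT against P7C3-A20 it was 0.10, with 18 higher and 0 lower, against 9.92% and 5.89%. The count higher was 9 without NAT replicate 1 and 10 without NAT replicate 3, against 6.35% and 6.52% of all genes. With the GC trend removed the medians for NAT were 0.04 against DMSO and 0.07 against P7C3-A20. In those fits 9 and 10 genes were higher, against 5.85% and 5.81% of all genes. Topbp1, which helps to fire origins, had 52.6, 52.0 and 55.1 TPM in NAT, 46.8, 46.6 and 43.5 TPM in P7C3-A20 and 47.2, 44.9 and 44.7 TPM in DMSO. NAT was above the 6 others, with a log2 fold change of 0.22 ± 0.05 against DMSO (adjusted p = 0.210 in limma and 0.0384 in voom) and 0.22 ± 0.05 against P7C3-A20 (adjusted p = 0.168 in limma and 0.0310 in voom). Dnmt1, the maintenance DNA methyltransferase that Uhrf1 brings to DNA, had 74.7, 74.6 and 73.0 TPM in NAT, 67.3, 67.7 and 69.3 TPM in P7C3-A20 and 69.4, 65.7 and 66.0 TPM in DMSO, so NAT was again above all others. The same held for Clspn, the fork protein claspin, at 19.9, 18.6 and 19.0 TPM in NAT, 16.8, 15.4 and 17.0 TPM in P7C3-A20 and 17.7, 15.3 and 15.2 TPM in DMSO. Donson, a factor of fork stability, had 23.3, 22.4 and 23.2 TPM in NAT. It had 20.9, 20.3 and 19.4 TPM in P7C3-A20 and 19.7, 19.3 and 16.1 TPM in DMSO, also with NAT above all others.

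Some further genes differed in other ways. Shmt1, which feeds folate carbon to thymidylate synthesis, had 19.9, 18.4 and 15.9 TPM in NAT, 13.5, 14.6 and 14.9 TPM in P7C3-A20 and 15.6, 15.8 and 13.5 TPM in DMSO. Its lowest NAT library was just above the highest DMSO library. Pold4, the smallest subunit of polymerase delta, ran the other way, at 40.8, 40.6 and 39.0 TPM in NAT, 40.9, 39.2 and 38.2 TPM in P7C3-A20 and 43.7, 42.7 and 41.8 TPM in DMSO, so that both compounds were below all DMSO libraries (log2 fold change -0.09 ± 0.04 for NAT, adjusted p = 0.448, and -0.11 ± 0.04 for P7C3-A20, adjusted p = 0.246). The value for P7C3-A20 was -0.20 with the GC trend removed. Pold2, another subunit of that polymerase, had 39.3, 47.9 and 36.3 TPM in NAT, 39.9, 43.3 and 46.1 TPM in P7C3-A20 and 36.5, 39.6 and 37.1 TPM in DMSO. P7C3-A20 was above DMSO without overlap, and the NAT libraries spanned both. Dck, a salvage kinase for deoxycytidine, had 64.2, 59.5 and 62.6 TPM in NAT, 57.4, 57.1 and 56.2 TPM in P7C3-A20 and 63.3, 61.8 and 57.9 TPM in DMSO, with P7C3-A20 below all others.

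The libraries also differed in how expression ran with the GC content of transcripts. Relative to the mean of the 9 libraries, the slope per 10 points of GC was -0.07, 0.0038 and -0.03 on the log2 scale in the NAT libraries, 0.02, 0.04 and 0.12 in the P7C3-A20 libraries and -0.06, -0.02 and -0.0044 in the DMSO libraries. The members' median GC content was 49.0%, near the 49.7% of all genes tested. With the trend removed from each library, the members' median log2 fold change was 0.13 for NAT against DMSO, with 15 members higher and 0 lower at an unadjusted p below 0.05, against 5.85% and 6.19% of all genes tested in that fit. It was -0.0046 for P7C3-A20 against DMSO, with 1 higher and 2 lower, against 5.66% and 5.37%. Between NAT and P7C3-A20 it was 0.13, with 17 higher and 0 lower, against 5.81% and 5.90%.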

How the data were processed

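Total RNA of 9 libraries was made into Illumina TruSeq libraries, per the labels' protocols, which do not say that the kit marks strand, so reads of overlapping genes cannot be told apart. Bowtie 0.12.2 and the builds mm8 and mm9 are named, with no role, in the submitters' processing notes; which counter and annotation made the values is not given in the sources used here. The authors deposited TPM values for 23420 symbols in 9 columns, each summing to 1000000. Whole reads were recovered from the TPM steps for all 19302 genes with any value (tolerance 0.001) and served for depth and for voom only.

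The test was limma-trend on log2(TPM + 1) for the 13839 genes that reached 1 TPM in at least 3 libraries. A single fit held all 9 libraries (6 residual degrees of freedom), and two-sided p-values were adjusted by Benjamini and Hochberg over all genes tested, with a threshold of 0.05. Fold changes are on the log2(TPM + 1) scale with standard errors, which understates changes of low genes. The members and gene lists were chosen with earlier results of these data known, so no list was tested and medians and counts are descriptions. The design of the tests took the libraries of a group as biological replicates. Since the labels do not say whether they were separate cultures, p-values cover the spread between libraries. How much of that spread is technical is not known.

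Values in every library are given for the member with the lowest p (NAT against DMSO) and the one with the highest mean TPM in each role, for the 5 members with the lowest p in each comparison and for 4 of the 64 further genes in each. A further gene that this rule names and a neural stem cell marker are not reported here. Mcm6, Pole, Pola1, Rfc1, Fen1, Rrm1, Dut, Chaf1b, Orc1, Cdc6, Ccne2 and E2f1 were added after their values were seen. GC content came from GENCODE transcripts (GRCm38), promoter windows from RefSeq. Replicate numbers were not taken to pair the libraries, as the sources used here do not say whether they do. Alternatives were the replicate block, GC trend removal (spline with 5 degrees of freedom), quantile normalization, no filter or 5 TPM, a pseudocount of 0.1, robust empirical Bayes, the 6 compared libraries alone, voom on recovered reads and leaving out each library. The recovery of reads and the limma fit were tested on simulated data, and the other steps were not. Tools were limma 3.58.1 in R 4.3.3, and Python 3.11.15 with numpy 2.4.6, pandas 2.3.3 and matplotlib 3.10.9.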

Additional observations from a re-analysis of the deposited data

How the results depend on the processing

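With 3 libraries in each group, no group was large enough for a check of single outlying libraries, and no member passed limma in any comparison under any setting of that test. Counts of members at an unadjusted p below 0.05 were 22 for NAT and 7 for P7C3-A20 against DMSO, and 24 between NAT and P7C3-A20. The shares of all genes were 11.7%, 15.9% and 15.8%. Leaving out 1 library at a time gave 13 to 31, 3 to 9 and 15 to 23 members. Of all genes it gave 8.06% to 12.1%, 10.1% to 17.8% and 9.57% to 18.5%. The members' median log2 fold changes were then 0.11 to 0.21, -0.05 to 0.06 and 0.14 to 0.17. Quantile normalization gave 14 for NAT against DMSO, against 10.25% of all genes. The count for P7C3-A20 against DMSO was 3 with the GC trend removed, also in voom, against 11.03% and 12.07% of all genes. It was 4 with the 6 compared libraries alone, against 14.32%. Members without overlap for NAT against DMSO were 18 in TPM, where 19.0% of all genes tested had none. They were 10 after quantile normalization and 11 after removal of the GC trend. The share over all genes was not computed under those scalings, so these counts cannot be set against it. The median for NAT against P7C3-A20 was 0.13 with the GC trend removed, in limma and in voom. Voom on recovered reads passed 1, 1 and 4 members in the 3 comparisons, where it called 36, 468 and 254 of all genes, and 1, 0 and 3 with the GC trend removed, where it called 52, 34 and 62. The causes of these differences were not tested.

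The replicate number used as a block gave 23 members at an unadjusted p below 0.05 for NAT against DMSO, against 12.22% of all genes. With the GC trend removed besides it gave 13, against 12.04%, and 3 for P7C3-A20 against DMSO, against 11.68%. The median for NAT against P7C3-A20 was then 0.13. Deviations of same-numbered libraries correlated at -0.062 to 0.067, and those of differently numbered libraries at -0.090 to 0.099. Deviations from a mean of 3 libraries cannot decide whether the numbers pair libraries.

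Over every setting, 3 members (Orc1, Rfc2 and Rrm1, with values in the report) changed sign between NAT and DMSO, 22 between P7C3-A20 and DMSO, and 4 between NAT and P7C3-A20. Their log2 fold changes with all libraries were at most 0.06, 0.07 and 0.05 in size. The values that follow are those of the genes named by rule. For P7C3-A20 against DMSO, Pcna was at 0.0146 with the GC trend removed, with or without the block, at 0.00739 in voom and at 0.0220 in voom with the GC trend removed. Orc6 was at -0.0112 after quantile normalization. In voom, Lig1 was at 0.0129, Mcm3 at 0.0157 and Uhrf1 at 0.00580, and Prim2 was at 0.000906 with the GC trend removed. For NAT against P7C3-A20, Pold1 was at 0.0611 with the GC trend removed, with or without the block, and at 0.0623 in voom with the trend removed, and Mcm7 was at -0.00970 in voom. With 1 library left out, the values for P7C3-A20 against DMSO were -0.0298 to 0.0320 for Lig1, -0.0877 to 0.0613 for Mcm3, -0.0335 to 0.0733 for Orc6, -0.0458 to 0.0164 for Pcna, -0.0201 to 0.123 for Rfc4, -0.0102 to 0.141 for Rrm2 and -0.0570 to 0.0387 for Uhrf1. Those for NAT against P7C3-A20 were -0.0106 to 0.0483 for Mcm7, -0.0498 to 0.00456 for Pold1 and -0.0794 to 0.0157 for Rpa3.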

Other observations

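The 25 mitosis genes, which act after S phase, did not follow the replication genes in every comparison. For NAT against DMSO their median log2 fold change was 0.07, with 3 of 25 higher and 0 lower at an unadjusted p below 0.05, against 8.67% and 3.00% of all genes tested. Without DMSO replicate 3 that median was 0.0066, against 0.11 for the 46 replication genes. Without DMSO replicate 1 it was 0.11, with 11 higher, against 6.63% of all genes. For P7C3-A20 against DMSO the median was -0.10, with 0 higher and 6 lower, against 10.7% and 5.12%. The count lower moved with single libraries: it was 2 without P7C3-A20 replicate 3 (median -0.05) or without DMSO replicate 1 (-0.06), 4 without P7C3-A20 replicate 2 or DMSO replicate 2, 10 without P7C3-A20 replicate 1 and 13 without DMSO replicate 3 (-0.15). Of all genes, 3.21% to 6.32% were lower in these fits. For NAT against P7C3-A20 the median was 0.16, with 16 higher and 0 lower, against 9.92% and 5.89%. Leaving out 1 library gave 12 to 17 higher, against 5.88% to 11.28% of all genes. No mitosis gene passed in limma. Voom on recovered reads passed 0, 3 (all lower) and 7 (all higher) of them in these 3 comparisons, where it called 36, 468 and 254 of all genes. With the GC trend removed it passed 0, 0 and 3, where it called 52, 34 and 62. The difference between the lists was not tested. Mki67, a marker of cycling cells, had 191, 177 and 184 TPM in NAT, 167, 151 and 143 TPM in P7C3-A20 and 196, 174 and 162 TPM in DMSO, so that NAT was above all P7C3-A20 libraries and overlapped with DMSO. Kif11, a spindle motor, had 87.0, 79.4 and 83.9 TPM in NAT, 72.0, 71.2 and 64.1 TPM in P7C3-A20 and 83.2, 75.2 and 74.2 TPM in DMSO, with P7C3-A20 below all 6 others. Both genes were chosen after their values were seen. Of the mitosis genes' 22 promoter windows, 19 held a CCAAT box (86.4%) and 1 an E2F spelling (4.55%).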
